A study of Mus musculus with 16 samples.

Results

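Hepatokines are proteins that the liver secretes and that act on metabolism in other organs. The genes of 9 of them, *Fgf21*, *Gdf15*, *Inhbe*, *Angptl8*, *Ahsg*, *Fetub*, *Rbp4*, *Tsku* and *Enho*, were chosen by symbol. Earlier results of these data were known when they were chosen. All 9 were found among the 52143 genes of the count table. Liver RNA came from 16 male C57BL6/J mice, with 4 mice in each of 4 groups. Mice were 6 weeks old at the start and were fed for 12 weeks, either chow or a diet high in fat (HFD). Every 2 weeks they were injected under the skin, the Chow and HFD groups with saline and the Chow/FGFR4 KD and HFD/FGFR4 KD groups with an siRNA that targets *Fgfr4*, at 3 mg/kg, where KD is knockdown. The siRNA was coupled to N-acetylgalactosamine, a sugar that hepatocytes take up. No group received an siRNA without a target in the mouse, so injection of an siRNA as such and loss of FGFR4 cannot be told apart.

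Secreted liver factors fall into several kinds. FGF21 and GDF15 are stress hormones that signal through receptors partly or wholly outside the liver, and their genes are known targets of the integrated stress response, in which ATF4 drives transcription when amino acids are short or proteins misfold. Activin E, encoded by *Inhbe*, is a member of the TGF-beta family that restrains lipolysis in adipose tissue, and ANGPTL8 takes part in the inhibition of lipoprotein lipase after meals. The fetuins AHSG and FETUB are abundant plasma glycoproteins that can inhibit the insulin receptor, RBP4 carries retinol, tsukushi (*Tsku*) is a small leucine-rich proteoglycan, and adropin is the peptide product of *Enho*. Fibroblast growth factor receptor 4 (FGFR4), the target of the knockdown, is the main liver receptor of the gut hormone FGF15.

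RefSeq held promoter windows, from 250 bases before to 50 bases after the transcription start, for 8 of the 9 genes (GRCm38.p6). The windows of *Fgf21*, *Inhbe* and *Angptl8* are shown because all 3 hold the letters TGATGCAA on one of the strands, a form of the amino acid response element to which ATF4 and C/EBP proteins can bind together. The match is in capitals, and it reads TTGCATCA where it lies on the opposite strand. The windows lie at chr7:45615441-45615740 on the minus strand for *Fgf21*, chr10:127351799-127352098 on the minus strand for *Inhbe*, and chr9:21835260-21835559 on the plus strand for *Angptl8*.
Fgf21: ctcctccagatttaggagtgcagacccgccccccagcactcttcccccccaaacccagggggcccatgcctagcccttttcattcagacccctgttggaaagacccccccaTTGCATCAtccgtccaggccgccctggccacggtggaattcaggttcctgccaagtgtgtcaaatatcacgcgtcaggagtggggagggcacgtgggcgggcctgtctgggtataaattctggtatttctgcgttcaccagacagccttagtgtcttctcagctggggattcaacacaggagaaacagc
Inhbe: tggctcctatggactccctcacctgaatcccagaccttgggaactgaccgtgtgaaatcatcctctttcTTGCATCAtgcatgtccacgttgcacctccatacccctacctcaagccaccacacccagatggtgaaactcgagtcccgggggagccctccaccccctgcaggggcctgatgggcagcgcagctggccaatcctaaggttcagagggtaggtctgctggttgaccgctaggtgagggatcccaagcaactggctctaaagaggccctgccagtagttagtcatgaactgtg
Angptl8: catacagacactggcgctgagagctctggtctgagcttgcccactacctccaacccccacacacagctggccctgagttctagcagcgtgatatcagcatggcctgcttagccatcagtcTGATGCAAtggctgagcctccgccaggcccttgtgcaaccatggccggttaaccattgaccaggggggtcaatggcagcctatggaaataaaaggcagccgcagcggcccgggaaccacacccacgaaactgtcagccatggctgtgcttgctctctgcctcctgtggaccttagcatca

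The match began 139 bases before the RefSeq start of *Fgf21*, 181 before that of *Inhbe* and 130 before that of *Angptl8*. The whole window of *Inhbe* lies inside the gene as GENCODE places it (127348857 to 127354411). Its match is thus not upstream of the gene in that annotation, from which gene positions and transcript lengths were taken. Searched on both strands, TGATGCAA was found in 0.895% of the 32851 promoter windows of the same length. The looser form TGATGNAA, which contains the first, was found in 3.97% of windows and in 4 of the 8 genes, with *Rbp4* as the fourth. Some genes have more than 1 start, and the 8 genes hold 12 windows, so a count of genes is not like a share of windows. The letters CACGTG, the core of an E-box as bound by clock and carbohydrate response factors, were in 7.15% of windows and in those of *Fgf21* and of the second start of *Gdf15*. These motifs were chosen after the sequences had been seen, and a match describes letters only.

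The fetuin genes are neighbours on the plus strand of chromosome 16, with 18.9 kb between them, and their windows are shown for an 11-base run that they share, CTGTTTGCAAG, in capitals. The window of *Ahsg* lies at chr16:22891765-22892064 and that of *Fetub* at chr16:22918132-22918431. Searched on both strands, the run occurred in 13 of the 32851 windows, or 0.0396%, and it was chosen after the sequences had been seen. It began 80 bases before the RefSeq start of *Ahsg* and 43 before that of *Fetub*. In GENCODE the whole window of *Ahsg* lies inside the gene (22891277 to 22899449), and that of *Fetub* spans the start of the gene (22918334).
Ahsg: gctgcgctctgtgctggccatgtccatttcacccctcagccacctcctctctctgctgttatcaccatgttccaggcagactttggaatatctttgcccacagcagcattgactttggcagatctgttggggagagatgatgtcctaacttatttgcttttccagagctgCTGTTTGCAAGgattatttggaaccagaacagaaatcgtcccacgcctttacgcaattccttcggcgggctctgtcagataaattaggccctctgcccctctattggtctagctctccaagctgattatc
Fetub: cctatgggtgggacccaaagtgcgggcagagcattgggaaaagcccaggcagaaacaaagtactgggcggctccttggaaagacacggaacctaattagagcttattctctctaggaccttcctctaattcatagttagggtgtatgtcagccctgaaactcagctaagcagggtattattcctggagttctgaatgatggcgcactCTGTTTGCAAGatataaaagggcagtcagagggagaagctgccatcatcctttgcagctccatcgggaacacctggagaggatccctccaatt

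Total estimated counts per library ranged from 3445949 to 5976449. *Fgfr4* was at most 6.17 CPM (counts scaled to a library size of 1000000, with TMM factors) in the 8 KD libraries and at least 21.8 CPM in the 8 saline libraries. All 9 hepatocyte markers examined, among them *Alb* and *Apoa1*, were detected, and they summed to between 65300 and 83200 CPM in every library. A library of the HFD/FGFR4 KD group, number 1, stood apart from its group: on the first principal component, which held 46.1% of the variance of the 500 most variable genes and divided the diets, it lay at -6.33, among chow libraries (-23.2 to -4.84), while the other 3 lay between 16.7 and 20.5. Chow/FGFR4 KD 4 had 2380 CPM of the acute-phase gene *Saa2*, against 66.0 CPM or less in the groups on HFD, and this gene was chosen after the values had been seen. Hepatokine results that rest on these libraries are given with and without them, and those of the related genes are gathered after their lists.

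The 9 hepatokines covered a wide range of levels, and all passed the filter that kept 11324 genes for testing. Levels were compared per length in Chow, as CPM divided by transcript length in kb (mean ± SD, n = 4). The length was that of a single annotated transcript per gene. A transcript tagged as principal was preferred, and the longest was taken only among equals. *Ahsg* was highest at 2800 ± 375, followed by *Rbp4* at 2080 ± 199 and *Fetub* at 208 ± 21.1. They ranked 31st, 43rd and 259th among the 11190 tested genes with a length. The other 6 were far lower, with *Tsku* at 25 ± 6.48, *Angptl8* at 18.3 ± 4.50, *Gdf15* at 9.14 ± 4.81, *Enho* at 6.40 ± 2.15, *Inhbe* at 5.75 ± 0.709 and *Fgf21* at 2.80 ± 1.40. In this order *Gdf15* and *Enho*, and *Enho* and *Inhbe*, differed by less than the larger of their SDs, while the other neighbours were further apart. The value of *Inhbe* rests on a long annotated transcript of 5319 bases. The sources differ on the kit used to make the libraries, and if reads came from short probes rather than whole transcripts, these values per length and their ranks would not compare levels between genes.

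Depth bore most on *Fgf21*, which had between 1 and 54 counts in a library, and on *Enho*, which had between 7 and 46. Counting error alone gave a coefficient of variation of 75.0% for *Fgf21* in Chow/FGFR4 KD, where the observed one was 92.8%, and of 25.8% for *Enho* in HFD, where the observed one was 59.6%. For *Gdf15*, counting error was between 14.0% and 19.3% and the observed variation between 52.6% and 73.3% in the 4 groups, so its spread was larger than counting error gives. *Ahsg*, *Fetub* and *Rbp4* varied by at most 18.4% in any group.

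**Figure D1:**
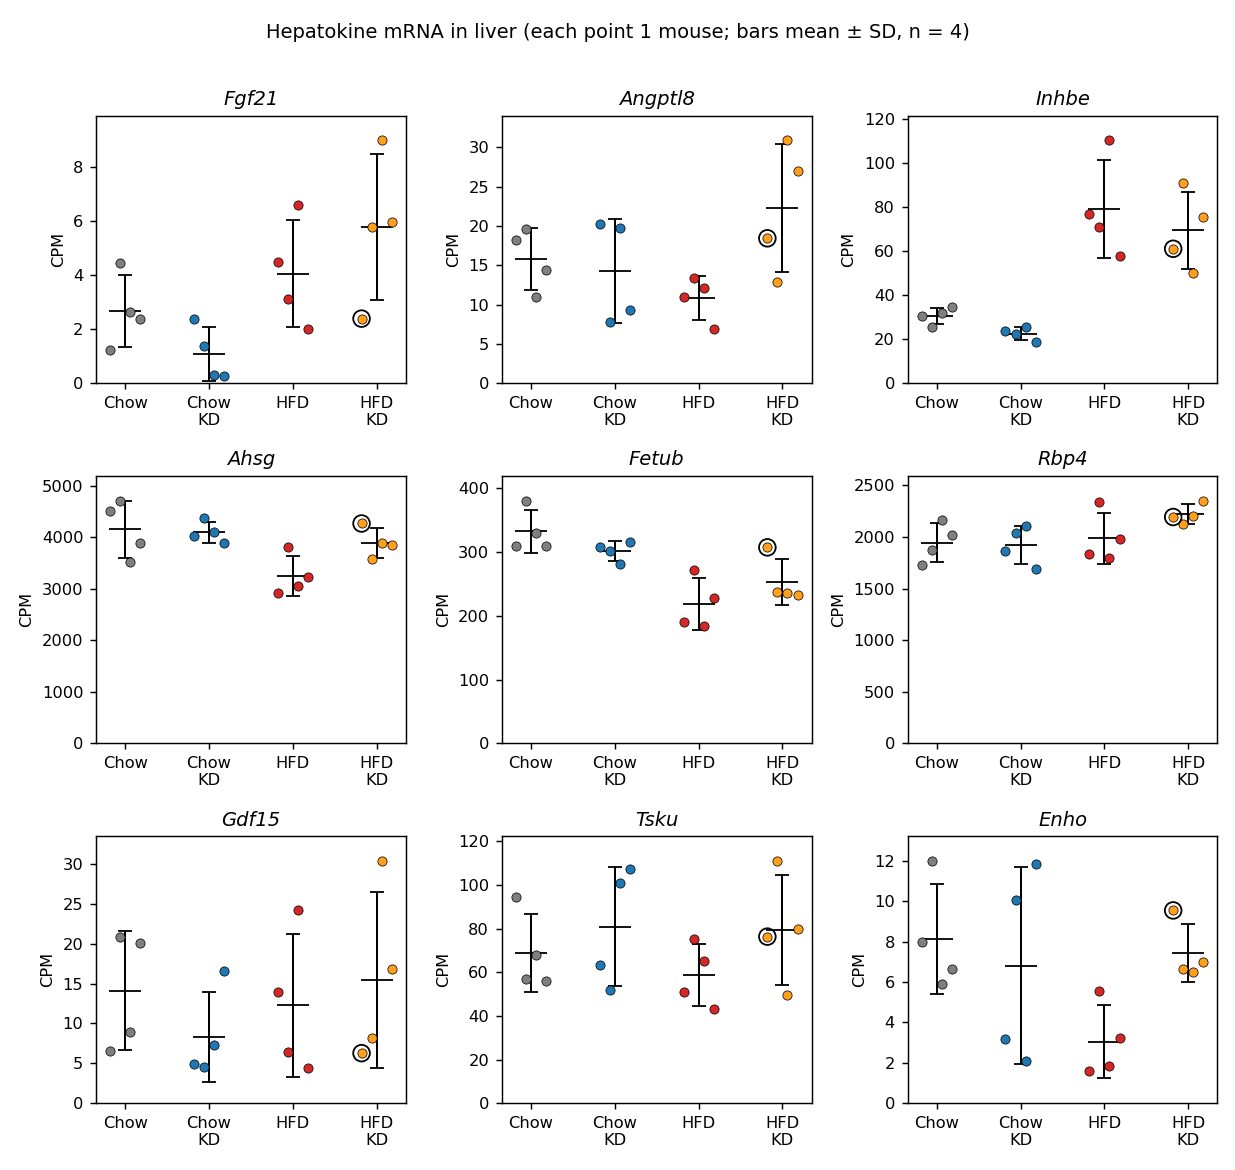
CPM of each hepatokine (vertical axis, from 0) in the 4 groups, with a point for each mouse and bars for the mean ± SD (n = 4); KD stands for FGFR4 KD and the ring marks HFD/FGFR4 KD 1. *Inhbe* lies at 50.3 CPM or more in both HFD groups and at 34.5 CPM or less in both chow groups, *Enho* is low in HFD, and *Gdf15* overlaps in all groups.

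With HFD in saline mice, *Inhbe* was increased 2.52-fold while *Fetub*, *Ahsg* and *Enho* were decreased. These 4 of 9 hepatokines were called by limma-voom, which here takes an adjusted p under 0.25 together with p under 0.05 as the study did, against 26% of all genes tested. By direction this was 1 higher against 13.3% of all genes and 3 lower against 12.7%. All 4 had an adjusted p under 0.05 as well, against 9.2% of all genes. The groups did not overlap for *Inhbe*, *Fetub* and *Enho*, which is 3 of 9 against 16.1% of all genes. In bulk liver, fewer cells of a type and less RNA per cell cannot be told apart. In the KD mice HFD changed 4 of 9 at this threshold, against 20.2% of all genes, with *Fgf21*, *Inhbe* and *Rbp4* higher and *Fetub* lower. The libraries of *Fgf21*, *Inhbe* and *Rbp4* did not overlap, or 3 of 9 against 11.5%, and *Fgf21* and *Inhbe* had an adjusted p under 0.05, 2 of 9 against 3.1%.

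FGFR4 KD on HFD increased *Angptl8* and *Enho*, 2 of 9, against 3.14% of all genes called in either direction, 1.5% higher and 1.64% lower, and for *Enho* the groups did not overlap, 1 of 9 against 6.49%. Over the 9 hepatokines the median log2 change was 0.35 with 8 positive, beside a median of 0.0035 over all genes. Among the lists described below, hepatocyte markers had 7 of 9 positive with a median of 0.20, and acute-phase genes 10 of 12 with 0.22. Other secreted liver factors had 10 of 17 positive with 0.034, and PPAR-alpha targets 1 of 13 with -0.46. At an adjusted p under 0.05 neither *Angptl8* nor *Enho* was called, against 0.274% of all genes. KD on chow changed 0 of 9 by limma-voom, against 0.00883% of all genes, a single gene that was *Fgfr4* itself. The median log2 change of the 9 there was -0.22 with 1 positive, beside 0.0041 over all genes. None of the 9 had an unadjusted p under 0.05 there, against 4.58% of all genes, and neither edgeR nor DESeq2 called any, with an unadjusted p under 0.05 for 1 and 2 of the 9. For *Inhbe* the KD libraries on chow lay below all Chow libraries without passing the test, 1 of 9 against 2.52%.

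**Figure D2:**
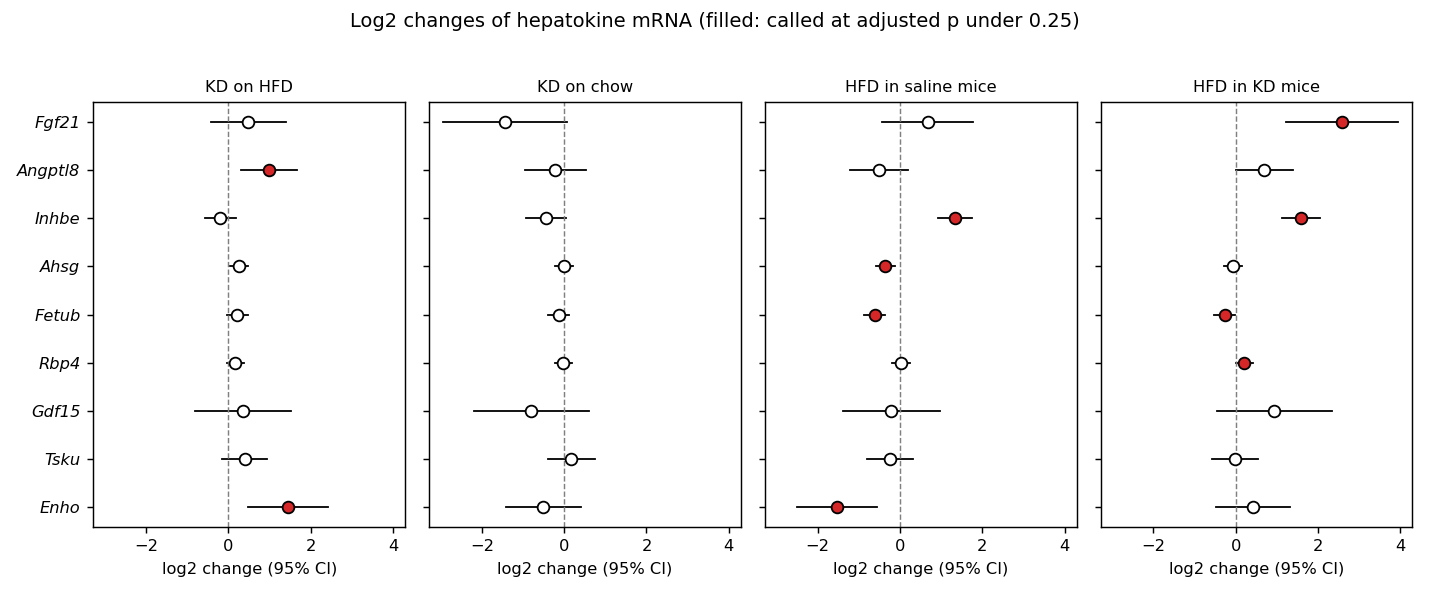
Log2 change of each hepatokine (horizontal axis, with the 95% confidence interval of limma-voom as a bar) in 4 comparisons, the second group named minus the first; filled points passed the threshold of an adjusted p under 0.25 with p under 0.05. *Inhbe* changed by 1.34 with HFD in saline mice and by 1.58 in KD mice, *Fgf21* by 2.59 in KD mice, and no hepatokine passed with KD on chow.

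Of the hormone-like stress factors, *Fgf21* (chromosome 7, 45613886 to 45615490 in GRCm38) was low in every library. Chow 1 to 4 had 1.23, 4.43, 2.64 and 2.37 CPM. Chow/FGFR4 KD 1 to 4 had 2.38, 1.37, 0.303 and 0.276 CPM, where the last 2 values stand for 1 count each. In HFD it was 4.47, 3.11, 6.59 and 2.02 CPM, and in HFD/FGFR4 KD 2.38, 5.75, 8.97 and 5.96 CPM. All libraries of HFD/FGFR4 KD lay above the highest of Chow/FGFR4 KD, though the nearest pair differed only in the fourth digit, and all other groups overlapped. Diet in KD mice raised *Fgf21* by 2.59 on the log2 scale (SE 0.644, limma-voom adjusted p 0.0393), from 1.08 ± 1 to 5.77 ± 2.69 CPM (n = 4). The change was 2.96 without HFD/FGFR4 KD 1 (adjusted p 0.0105) and 2.15 without Chow/FGFR4 KD 4 (adjusted p 0.142), and it was called in all 8 fits without a library of the comparison. In saline mice the change was 0.67 (SE 0.526, adjusted p 0.451), and the test of the difference between the diets' effects gave 1.92 (p 0.0342, adjusted p 0.70), which did not pass. KD on chow gave -1.44 (95% interval -2.94 to 0.07, adjusted p 0.976), and -0.996 without Chow/FGFR4 KD 4 (adjusted p 0.999).

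FGF21 acts through FGFR1 with the coreceptor beta-Klotho. *Klb*, which encodes beta-Klotho and also serves FGFR4, was between 18.7 ± 3.34 CPM in Chow/FGFR4 KD and 27.9 ± 3.85 CPM in HFD/FGFR4 KD, and rose by 0.56 with HFD in KD mice (SE 0.154, limma-voom adjusted p 0.0576). *Fgfr1* was 5.68 ± 0.634 CPM in Chow and 3.89 ± 2.05 CPM in HFD, a change of -0.73 that passed the threshold (adjusted p 0.163) although the groups overlapped.

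*Gdf15* (chromosome 8, 70629393 to 70632456) was scattered in every group. It was 6.56, 20.9, 8.92 and 20.1 CPM in Chow. It was 4.96, 4.57, 7.27 and 16.5 CPM in Chow/FGFR4 KD, 14.0, 6.38, 24.2 and 4.44 CPM in HFD and 6.29, 8.19, 30.4 and 16.8 CPM in HFD/FGFR4 KD. Every group overlapped with every other. No comparison passed the threshold, and the intervals were wide, from -0.82 to 1.51 on the log2 scale for KD on HFD and from -1.39 to 0.97 for HFD in saline mice, so fold changes from 0.567 to 2.86 and from 0.381 to 1.96 lay within the error of 4 mice a group. The GDF15 receptor gene *Gfral*, which is known from the hindbrain, was at 0 counts in all 16 libraries.

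*Inhbe* (chromosome 10, 127348857 to 127354411) showed the clearest effect of diet. It was 30.3, 25.5, 31.8 and 34.5 CPM in Chow and 76.9, 71.0, 110 and 57.9 CPM in HFD. In KD mice it was 23.6, 22.3, 25.4 and 18.7 CPM on chow and 61.1, 90.9, 50.3 and 75.7 CPM on HFD. All 8 libraries on HFD lay above all 8 on chow, HFD/FGFR4 KD 1 included. The change with HFD was 1.34 in saline mice (SE 0.199, limma-voom adjusted p 0.00106) and 1.58 in KD mice (SE 0.217, adjusted p 0.00109), or 2.52-fold (95% interval 1.89 to 3.38) and 3.00-fold (2.18 to 4.12). The effects in saline and KD mice were not shown to differ (difference 0.25, 95% interval -0.38 to 0.87, adjusted p 0.904). KD on HFD gave -0.19 (95% interval -0.58 to 0.19), and KD on chow gave -0.44 (-0.93 to 0.05, p 0.0751, adjusted p 0.976), the comparison in which the groups did not overlap. Both diet calls were kept in all 8 fits without a library of the comparison and under 11 other settings.

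Among the other activin and inhibin subunits, *Inhbc*, which encodes the liver's activin C, was between 48.4 ± 10.6 and 59.8 ± 15.3 CPM in the 4 groups and passed no test. *Inhba* moved opposite to *Inhbe*, from 9.81 ± 3.54 CPM in Chow to 4.22 ± 0.955 CPM in HFD, a change of -1.12 (SE 0.346, limma-voom adjusted p 0.051). In KD mice it changed by -1.23 with HFD (SE 0.309, adjusted p 0.042). The type I receptor gene *Acvr1b* rose by 0.80 with HFD in saline mice (SE 0.252, adjusted p 0.057), while *Acvr1c*, known as the activin E receptor of fat cells, had at most 1 count in any library. *Inha*, whose product pairs with beta subunits to make inhibins, had at most 2.

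*Angptl8* (chromosome 9, 21835510 to 21837347) was 18.2, 19.6, 11 and 14.4 CPM in Chow, while the Chow/FGFR4 KD libraries had 20.2, 7.77, 19.7 and 9.37 CPM. It was 11, 13.4, 12.1 and 6.86 CPM in HFD and 18.4, 12.8, 30.9 and 26.9 CPM in HFD/FGFR4 KD. On HFD, 3 of 4 KD libraries lay above every saline library and the KD library at 12.8 CPM lay within them. The mean was 10.8 ± 2.83 CPM in HFD and 22.3 ± 8.16 CPM with KD, a difference of 0.99 on the log2 scale (SE 0.316, limma-voom adjusted p 0.228). This call held in 2 of 8 fits without a library of the comparison, those without HFD 2 (adjusted p 0.201) and HFD/FGFR4 KD 2 (0.0931). The call was lost without HFD 1 (adjusted p 0.373), HFD 3 (0.43), HFD 4 (0.373), HFD/FGFR4 KD 1 (0.343), HFD/FGFR4 KD 3 (0.502) and HFD/FGFR4 KD 4 (0.438), with changes from 0.77 to 1.22 over the 8 fits. Among 11 other settings the call was lost under 4, namely with library totals as the only scaling (adjusted p 0.372), with no filter (0.27), with only the groups compared (0.271) and with the replicate block (0.265). HFD in KD mice gave 0.69 (adjusted p 0.249, p over 0.05), which did not pass. It passed in 4 of 8 fits without a library of the comparison, those without Chow/FGFR4 KD 1 (adjusted p 0.179) and 3 (0.222) and without HFD/FGFR4 KD 1 (0.221) and 2 (0.158), and under 2 of 11 other settings, library totals (0.16) and upper quartiles (0.221). The difference between the KD effects on the diets was 1.20 (SE 0.471, p 0.0207, adjusted p 0.684).

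*Lpl*, the gene of lipoprotein lipase, lay between 10.4 ± 1.96 and 15.0 ± 4.95 CPM and passed no test. *Angptl4*, a related inhibitor of the lipase, was lower with HFD, by -0.80 in saline mice (178 to 103 CPM, SE 0.162, limma-voom adjusted p 0.0063) and by -0.51 in KD mice (adjusted p 0.10). *Angptl8* lies within the gene *Dock6* on the opposite strand, without shared exons, and *Dock6* was between 10.8 and 18.5 CPM in all libraries.

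The fetuins fell with HFD in saline mice. *Fetub* (chromosome 16, 22918334 to 22939778) was 309, 381, 330 and 310 CPM in Chow and 190, 271, 185 and 229 CPM in HFD, all below the lowest Chow library. It was 309, 301, 281 and 316 CPM in Chow/FGFR4 KD and 307, 237, 236 and 232 CPM in HFD/FGFR4 KD, where library 1 lay among the chow libraries and the other 3 below them. The change with HFD was -0.62 in saline mice (SE 0.121, limma-voom adjusted p 0.00538) and -0.26 in KD mice (SE 0.121, adjusted p 0.236). The first call was kept in all 8 fits without a library of the comparison and under 11 other settings. The second was lost in 6 of 8 such fits, those without Chow/FGFR4 KD 1 (adjusted p 0.31), 2 (0.307) and 4 (0.373) and without HFD/FGFR4 KD 2 (0.393), 3 (0.40) and 4 (0.434), and it was -0.36 without HFD/FGFR4 KD 1 (adjusted p 0.0837). It was also lost under 5 of 11 other settings, with edgeR (adjusted p 0.265), DESeq2 (0.267), upper quartiles (0.323), no filter (0.334) and library totals (0.636), where the change was -0.10. KD on HFD gave 0.22 for *Fetub* (adjusted p 0.538), which passed in 1 of 8 fits, the one without HFD 2 (0.33, adjusted p 0.22). The diet effects on *Fetub* in saline and KD mice were not shown to differ (difference 0.36, SE 0.171, limma-voom p 0.0535, adjusted p 0.73).

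*Ahsg* (chromosome 16, 22891277 to 22899449) was 4521, 4718, 3515 and 3896 CPM in Chow and 2928, 3811, 3060 and 3230 CPM in HFD. Only HFD 2 reached into the range of Chow. The change was -0.35 (SE 0.104, limma-voom adjusted p 0.0432), from 4160 ± 556 to 3260 ± 390 CPM. In Chow/FGFR4 KD it was 4026, 4386, 4102 and 3898 CPM and in HFD/FGFR4 KD 4272, 3573, 3897 and 3847 CPM, which overlapped, with a change of -0.08 (adjusted p 0.729). KD on HFD gave 0.26 (SE 0.104, p 0.0218, adjusted p 0.358), which did not pass. It passed without HFD 2 (0.34, adjusted p 0.161) and with library quality weights (0.28, adjusted p 0.192). The difference between KD effects gave 0.28 (adjusted p 0.755). Among the 11 other settings the call with HFD in saline mice was lost under library totals as the only scaling, where the change was -0.07 (adjusted p 0.617). That scaling raised the median change of all genes by 0.28, and relative to this shift the sizes were alike. Counts of *Gm42418*, a gene that overlaps ribosomal RNA sequence, were between 131000 and 266000 CPM in Chow and between 95300 and 144000 CPM in HFD, and the change of *Ahsg* was -0.35 as well when *Gm42418* and *Lars2* were removed before scaling (adjusted p 0.0387). *Gm42418* was named after its values were seen.

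*Insr*, the gene of the insulin receptor that fetuins can inhibit, lay between 111 ± 8 and 123 ± 12.9 CPM in the 4 groups and passed no test. An antisense gene, *Gm30505*, overlaps exons of *Ahsg* and had 1 to 9 counts in a library against at least 13548 of *Ahsg*.

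*Rbp4* (chromosome 19, 38116629 to 38125281) was among the steadiest. It was 1730, 1869, 2162 and 2019 CPM in Chow. The libraries of Chow/FGFR4 KD had 1860, 2037, 2102 and 1687 CPM. It was 1836, 2337, 1797 and 1979 CPM in HFD and 2193, 2125, 2206 and 2353 CPM in HFD/FGFR4 KD. The last group was the narrowest and lay above Chow/FGFR4 KD without overlap, by 0.21 (SE 0.0986, limma-voom adjusted p 0.24). That call was kept in 1 of 8 fits without a library of the comparison, the one without Chow/FGFR4 KD 3 (adjusted p 0.208). It was lost without Chow/FGFR4 KD 1 (adjusted p 0.364), 2 (0.253) and 4 (0.474) and without HFD/FGFR4 KD 1 (0.255), 2 (0.295), 3 (0.341) and 4 (0.436). It was also lost under 6 of 11 other settings, with edgeR (adjusted p 0.307), the filter that needs 1 CPM in only 4 libraries (0.282), no filter (0.28), only the groups compared (0.262), the replicate block (0.262) and quality weights (0.215, with p over 0.05). In saline mice the change with HFD was 0.03 (95% interval -0.18 to 0.24), and with library totals as the only scaling it was 0.31 and passed (adjusted p 0.109), close to the shift of all genes under that scaling.

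RBP4 travels in plasma bound to transthyretin. *Ttr*, at 4000 ± 280 CPM in Chow, was lower with KD on HFD, 3110 ± 189 against 4470 ± 577 CPM, without overlap (change -0.51, SE 0.115, limma-voom adjusted p 0.079). The retinol carrier's receptor gene *Stra6* had at most 1 count in any library, and *Stra6l*, a related receptor expressed in liver, was between 158 ± 15.4 and 179 ± 5.57 CPM and passed no test.

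*Tsku* (chromosome 7, 98350668 to 98361328) was 94.5, 57.1, 67.9 and 56.1 CPM in Chow. The libraries of Chow/FGFR4 KD had 63.3, 52.1, 101 and 107 CPM. It was 50.9, 75.2, 65.3 and 43.4 CPM in HFD and 76.3, 111, 49.8 and 79.8 CPM in HFD/FGFR4 KD. All groups overlapped and no comparison passed. The largest change was 0.39 with KD on HFD (95% interval -0.16 to 0.95, limma-voom adjusted p 0.63).

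*Enho* (chromosome 4, 41638144 to 41640324) was lowest in HFD. It was 8, 12, 5.88 and 6.63 CPM in Chow, 1.58, 5.56, 1.84 and 3.23 CPM in HFD, and 9.54, 6.64, 6.48 and 7 CPM in HFD/FGFR4 KD. The HFD libraries lay below both, while Chow/FGFR4 KD, at 3.17, 10.1, 2.12 and 11.9 CPM, split into a high and a low pair and overlapped with all groups. HFD in saline mice changed *Enho* by -1.53 (SE 0.462, limma-voom adjusted p 0.0474), from 8.13 ± 2.73 to 3.05 ± 1.82 CPM. This was called in all 8 fits without a library of the comparison and under 11 other settings. KD on HFD changed it by 1.45 (SE 0.463, adjusted p 0.228), to 7.41 ± 1.43 CPM. Both comparisons use the same 4 HFD libraries, so the 2 changes are not independent. The KD call was kept without HFD 2 (adjusted p 0.147) and HFD/FGFR4 KD 2 (0.238) and lost without HFD 1 (0.467), HFD 3 (0.492), HFD 4 (0.296), HFD/FGFR4 KD 1 (0.432), HFD/FGFR4 KD 3 (0.355) and HFD/FGFR4 KD 4 (0.382), with changes from 1.18 to 1.80. Among 11 other settings it was lost under 4, with edgeR (1.29, adjusted p 0.316), library totals (adjusted p 0.311), no filter (0.27) and the replicate block (1.25, adjusted p 0.276).

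The exons of *Enho* overlap those of *Dnaic1* on the opposite strand, which had 0 to 2 counts in a library. *Gpr19*, a proposed adropin receptor, was between 1.61 ± 0.474 and 3.08 ± 0.626 CPM and rose by 0.83 with HFD in KD mice (SE 0.34, limma-voom adjusted p 0.18).

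The KD effect on HFD was also compared with that on chow, by the difference between these effects. The test called 0 of 9 hepatokines by limma-voom, against 0.0353% of all genes, and 0 of 9 with edgeR. DESeq2 called 0 of the 5 to which it gave an adjusted p, and gave none to the other 4, *Fgf21*, *Angptl8*, *Enho* and *Gdf15*. An unadjusted p under 0.05 was found for 3, against 6.76% of all genes, namely *Fgf21*, *Angptl8* and *Enho*, of which *Enho* had the largest difference, 1.96 (SE 0.63, p 0.00656, adjusted p 0.571). It was 1.83 without HFD/FGFR4 KD 1 (adjusted p 0.744) and 2.28 without Chow/FGFR4 KD 4 (adjusted p 0.487). All 9 differences were positive with a median of 0.36, beside -0.0026 over all genes. By the same measure 7 of 9 hepatocyte markers were positive with a median of 0.255, and 0 of 12 acute-phase genes with -0.42. Each hepatokine difference subtracts the change with KD on chow, of which 1 of 9 was positive and the median was -0.22, with none called. No p is given for the set because its members were chosen with earlier results known.

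**Figure D3:**
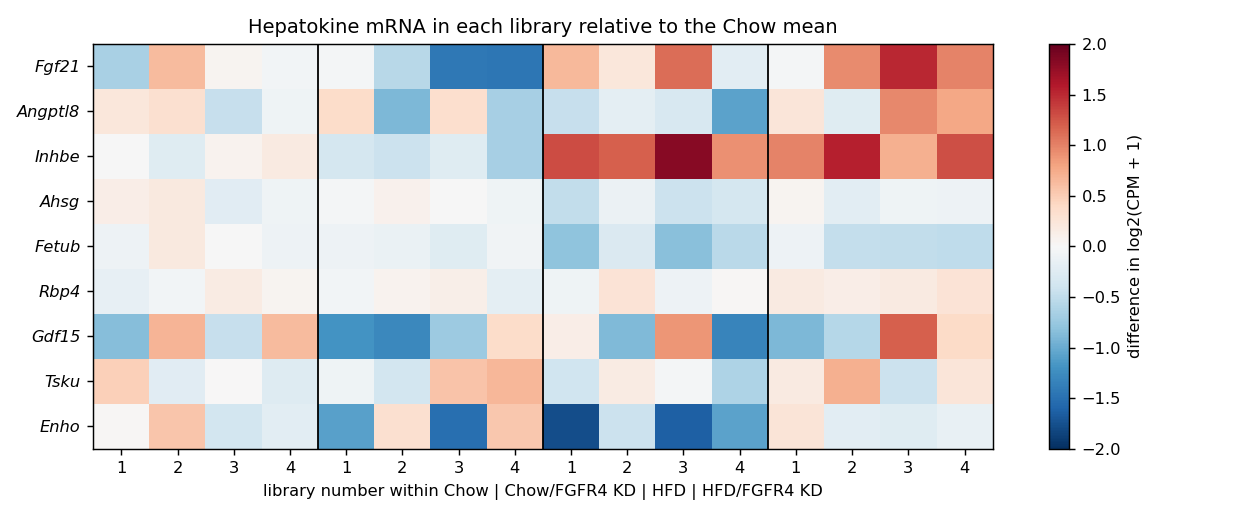
Difference in log2(CPM + 1) from the Chow mean (colour, from -2 to 2) for each hepatokine (rows) and library (columns, numbered 1 to 4 in each group, the chow groups on the left and the HFD groups on the right, each with saline before KD). *Inhbe* is red in all 8 libraries on HFD, *Fetub* is blue in HFD and in libraries 2 to 4 of HFD/FGFR4 KD, and *Enho* is bluest in HFD 1 and 3 and in Chow/FGFR4 KD 3.

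Across the 16 libraries, 4 groups included, *Ahsg* and *Fetub* had a Pearson r of 0.812 on log2 CPM, and *Inhbe* had an r of -0.797 with *Fetub*, values that describe how the libraries varied together across diets and carry no test. By the same measure, with n = 16, the genes most like *Inhbe* were *Lipg*, which encodes endothelial lipase (r 0.965), *Agxt2* (0.961) and *Wdr73* (0.942), and 31 genes exceeded 0.9. Those most like *Fetub* were the complement genes *C6* (0.947) and *C8b* (0.938) and *Acadsb* (0.936), and 39 genes exceeded 0.9. Those most like *Ahsg* were *Fubp1* (0.909), *Gpbp1* (0.901) and *Serpina1a* (0.891). For *Fgf21* they were *Dixdc1* (0.876) and the fatty acid elongase gene *Elovl2* (0.867), and for *Rbp4* they were *Pipox* (0.863), *C8g* (0.837) and *Pon1* (0.834). The best for *Enho* was *Pycrl* (0.819), for *Angptl8* *Repin1* (0.811), for *Gdf15* *Slc6a6* (0.80) and for *Tsku* *Rsl1d1* (0.776). Libraries shared depth and diet, and about 8449 genes were searched for each.

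Other secreted liver factors were followed as a list of 18, of which 17 were tested. The counts of this and the following lists stand beside 26% of all genes called with HFD in saline mice. The shares were 20.2% with HFD in KD mice and 3.14% with KD on HFD. HFD in saline mice raised 3 and lowered 3, with a median log2 change of -0.15, beside 0.0070 over all genes. *Igfbp2*, encoding an insulin-like growth factor binding protein, was lower by -1.56 (SE 0.275, limma-voom adjusted p 0.0032), *Lect2* was higher by 0.84 (SE 0.156, adjusted p 0.00393), *Selenop*, encoding the selenium carrier of plasma, was higher by 0.46 (SE 0.0976, adjusted p 0.00877), and *Igfbp1* was lower by -2.23 (SE 0.522, adjusted p 0.014). KD on HFD changed 2 of 17. *Igfbp2* rose from 58.5 ± 19.4 to 159 ± 63.1 CPM, by 1.42 (adjusted p 0.0453), and *Selenop* fell from 4430 ± 361 to 3520 ± 379 CPM, by -0.34 (adjusted p 0.19). Each of these comparisons again uses the HFD libraries. With HFD in KD mice 1 was higher, *Lect2* by 1.15 (SE 0.16, adjusted p 0.00115), and 2 were lower, among them *Igfbp1* by -2.32 (SE 0.516, adjusted p 0.0236).

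Genes of the integrated stress response, which can drive *Fgf21*, *Gdf15* and *Inhbe*, divided in direction. Of 16 listed, 9 were tested, and with HFD in saline mice 2 rose and 2 fell. *Atf5* was higher by 0.52 (SE 0.134, limma-voom adjusted p 0.0211), as was *Trib3*, an inhibitor of AKT, by 1.28 (SE 0.34, adjusted p 0.0262). *Atf4* itself was lower, 42.2 ± 4.93 against 54.5 ± 6.82 CPM (change -0.36, adjusted p 0.109), as was *Ppp1r15a* (-0.64, adjusted p 0.125). In KD mice *Atf5* (0.70, adjusted p 0.0123) and *Trib3* (1.30, SE 0.425, adjusted p 0.104) rose. KD on HFD raised 1 of 9, *Cebpb*, from 31.5 ± 4.58 to 78.9 ± 11.5 CPM without overlap (change 1.32, SE 0.359, adjusted p 0.16).

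Targets of PPAR-alpha, the fatty acid sensor that also drives *Fgf21* in fasting, were also followed. Of 13 tested, 6 rose and 2 fell with HFD in saline mice, with a median of 0.56. *Cpt1a*, which carries fatty acids into mitochondria, rose by 0.82 (SE 0.132, limma-voom adjusted p 0.00174), *Vnn1* by 1.74 (SE 0.32, adjusted p 0.00393) and *Ppara* by 0.61 (SE 0.137, adjusted p 0.0119). KD on HFD lowered 2 of 13, among them *Vnn1* by -1.67 (SE 0.315, adjusted p 0.0428). In KD mice HFD raised 3 and lowered 1, with *Cpt1a* at 0.78 (adjusted p 0.00528), *Ppara* at 0.65 (adjusted p 0.0221) and *Acot1* at -0.59 (adjusted p 0.231).

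Genes that respond to insulin and carbohydrate after feeding, as *Angptl8* does, had 5 of 12 higher and 0 lower with HFD in saline mice. *Pklr*, which encodes the liver's pyruvate kinase, rose by 1.17 (SE 0.282, limma-voom adjusted p 0.0164), the lipogenic regulator *Srebf1* by 0.82 (SE 0.288, adjusted p 0.0852) and *Elovl6* by 0.62 (SE 0.27, adjusted p 0.158). With KD on HFD limma-voom called 0 of 12 at an adjusted p under 0.25, against 3.14% of all genes. An unadjusted p under 0.05 was found for 3 of 12, against 11% of all genes. The part of this response in the change of *Angptl8* was not tested. With HFD in KD mice 1 of 12 was called higher.

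Of 28 receptors and partners of the hepatokines, 21 were tested. With HFD in saline mice 2 rose and 4 fell, so 28.6% were called, close to the 26% of all genes. With KD on HFD 2 fell, *Ttr* and *Fgfr4*, the target of the siRNA, against 3.14% of all genes called. The median changes of this list were -0.16 and 0.14.

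The values of the related genes were also computed without the libraries that stood apart, a choice made after the data had been seen. With KD on HFD, 12 genes of the lists were called, and 5 were kept without HFD/FGFR4 KD 1, among them *Fgfr4*. *Ttr* was then -0.48 (limma-voom adjusted p 0.186), *Igfbp2* 1.45 (0.0983), *Vnn1* -1.49 (0.115) and *Arntl* 1.43 (0.232). Among the 7 lost were *Cebpb* (1.29, adjusted p 0.291), *Selenop* (-0.28, 0.426), *Clock* (0.44, 0.396), *Per2* (-0.94, 0.252), *Dbp* (-0.92, 0.49) and *Cfd* (-1.68, 0.385). With HFD in KD mice, 39 were called, of which 37 were kept without HFD/FGFR4 KD 1 and 31 without Chow/FGFR4 KD 4, while 19 and 10 others passed. *Klb*, *Inhba*, *Gpr19*, *Lect2*, *Igfbp1*, *Atf5*, *Trib3*, *Cpt1a*, *Ppara* and *Angptl4* passed in both fits, and *Acot1* was lost without HFD/FGFR4 KD 1 (-0.46, adjusted p 0.362).

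**Figure D4:**
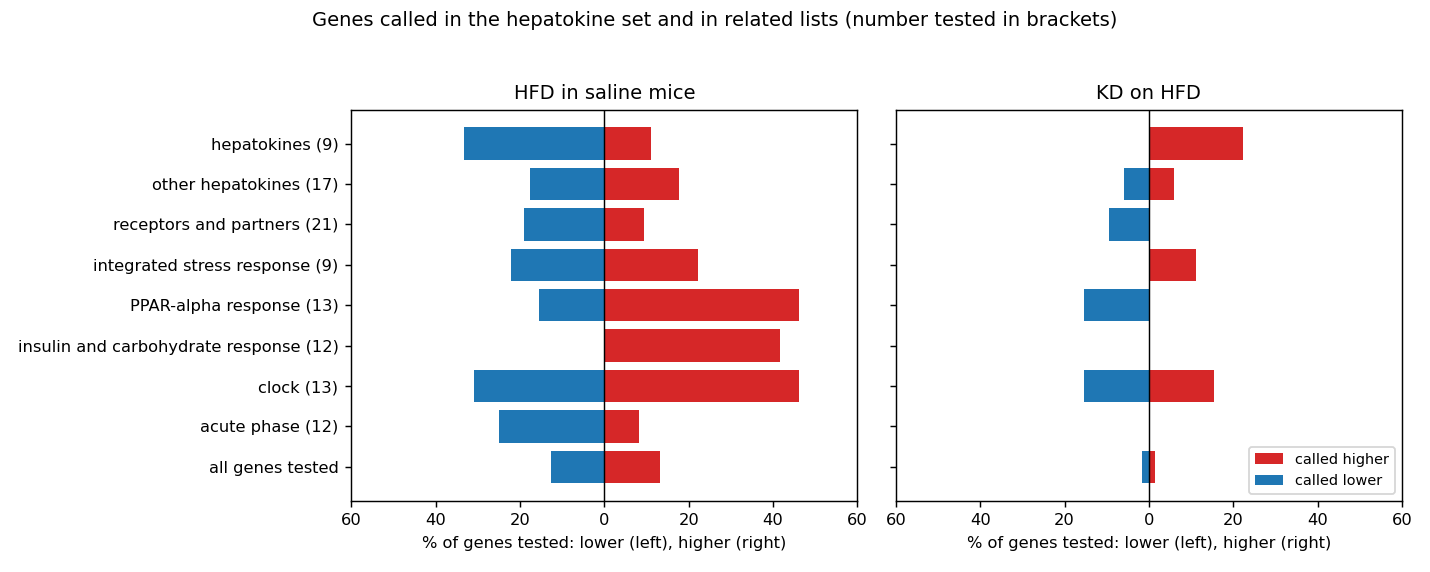
Percentage of tested genes called lower (left) and higher (right) in the hepatokines, in 7 related lists and in all genes tested, for HFD in saline mice and for KD on HFD; brackets give the genes tested. With HFD in saline mice the hepatokines had 1 higher and 3 lower of 9, and the insulin and carbohydrate list 5 higher and 0 lower of 12; all genes had 13.3% higher and 12.7% lower.

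Markers of other states and cells were followed too, and their values stand here beside the diet results, first those in saline mice. Of all genes tested, 13.3% were called higher and 12.7% lower there, and 1.5% and 1.64% with KD on HFD. The clock list had 6 higher and 4 lower of 13 tested with HFD in saline mice, led by *Clock* (-1.08, SE 0.147, limma-voom adjusted p 0.000592), *Tef* (1.11, SE 0.18, adjusted p 0.0019), *Arntl* (-2.09, SE 0.365, adjusted p 0.00296) and *Per3* (2.65, SE 0.47, adjusted p 0.00334). With KD on HFD it had 2 higher and 2 lower, *Arntl* by 1.55 (SE 0.377, adjusted p 0.102), *Clock* by 0.53 (SE 0.15, adjusted p 0.177), *Per2* by -0.85 (SE 0.241, adjusted p 0.177) and *Dbp* by -1.09 (SE 0.36, adjusted p 0.249). The part of the clock in the hepatokine changes was not tested. Acute-phase genes, to which the fetuins are related as plasma proteins, had 1 higher and 3 lower of 12 with HFD in saline mice, the 3 fibrinogen chains *Fgb* (-0.68, SE 0.187, adjusted p 0.0314), *Fgg* (-0.69, SE 0.195, adjusted p 0.0342) and *Fga* (-0.66, SE 0.191, adjusted p 0.0393).

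Hepatocyte markers, 9 tested, had 5 lower and 0 higher with HFD in saline mice, where their sum was 65300 to 74000 CPM against 70000 to 75400 in Chow. For these and the next cell types, the shares over all genes in saline mice were 13.3% higher and 12.7% lower. Kupffer cell and macrophage markers had 7 of 8 tested higher, and all 10 summed to 53.0 to 61.8 CPM in Chow, 65.7 to 88.5 in Chow/FGFR4 KD, 99.6 to 179 in HFD and 82.2 to 154 in HFD/FGFR4 KD. Stellate cell and fibroblast markers had 4 of 8 higher, with sums of 96.6 to 140 CPM in Chow and 160 to 309 in HFD. Endothelial markers had 4 of 7 higher, with sums of 97.8 to 122 and 110 to 128 CPM. Lymphocyte and blood markers had 2 of 2 tested higher, with sums of 98.0 to 254 and 281 to 528 CPM, and cholangiocyte markers 0 of 2, with sums of 36.8 to 51.9 and 14.4 to 92.5 CPM. Adipocyte markers had 2 of 3 tested higher, *Fabp4* and *Cfd*, with sums of 14.0 to 23.3 and 37.9 to 53.5 CPM, while *Lep* was at 0 in all 16 libraries and *Plin1* at 0 in HFD. With KD on HFD 1 of the 39 markers tested was called, against 3.14% of all genes. It was *Cfd*, which fell by 1.57, and the adipocyte sum was 18.1 to 33.4 CPM. An unadjusted p under 0.05 by limma-voom was found there for 7 of the 39, against 11% of all genes. Median changes were -0.63 for stellate cell and fibroblast markers (1 of 8 positive), -0.55 for adipocyte (0 of 3) and -0.41 for lymphocyte and blood (0 of 2). They were -0.21 for endothelial (0 of 7), -0.12 for Kupffer cell and macrophage (3 of 8), 0.20 for hepatocyte (7 of 9) and 0.33 for cholangiocyte markers (2 of 2). With HFD in KD mice 10.1% of all genes were called higher and 10.1% lower. The clock list had 7 higher and 4 lower of 13 there. Acute-phase genes had 0 higher and 4 lower of 12, or 3 and 3 without Chow/FGFR4 KD 4. Hepatocyte markers had 0 higher and 2 lower of 9, or 1 and 4 without HFD/FGFR4 KD 1. Kupffer cell and macrophage markers had 2 of 8 higher, and 7 of 8 without HFD/FGFR4 KD 1. Stellate cell and fibroblast markers had 1 of 8 higher, 3 without that library and 0 without Chow/FGFR4 KD 4, with sums of 82.2 to 132 CPM in Chow/FGFR4 KD and 111 to 201 in HFD/FGFR4 KD. Endothelial markers had 1 of 7 higher, adipocyte markers 2 of 3, and lymphocyte and blood markers 0 of 2, or 2 of 2 without HFD/FGFR4 KD 1. Cholangiocyte markers had 1 of 2 lower, and 0 without Chow/FGFR4 KD 4. The part of these cells in the fall of *Fetub* and *Ahsg* and the rise of *Inhbe* was not tested.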

How the data were processed

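Liver RNA libraries from 16 mice were grouped by the labels. The deposited table holds expected counts (estimated counts that need not be whole) for 52143 genes, which the authors made with kallisto and tximport. The submitters' processing notes also name fastp and GRCm38, and the transcriptome release and strand setting are not given in the sources used here. Genes with under 1 CPM in more than 4 libraries were left out, counts were scaled with TMM factors (0.836 to 1.17; edgeR 4.0.16), and limma-voom (limma 3.58.1, R 4.3.3) was fitted to all 16 libraries with a mean for each group. Benjamini-Hochberg adjustment ran over all 11324 genes. Intervals are 95% and two-sided.

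The members, the lists of related genes and the tests were chosen with earlier results of these data known. Named are the 9 hepatokines, their receptors, at most 4 called genes per list and comparison by p, and the 3 protein-coding genes with at least 5 CPM most correlated with each hepatokine. Some genes that this rule names are not reported here. A permutation test planned for hepatokines below the filter was not needed, since 0 were. Results were recomputed with DESeq2 1.42.0 on rounded counts, with the quasi-likelihood test of edgeR, and with other scalings, filters, weights and samples, a replicate block and leaving out each library. In simulated counts for KD on HFD, with 11394 genes tested, 86.5% of 200 genes changed 2-fold were recovered and 23.1% of calls were false. The changed genes were drawn only from those above a minimum mean count. The simulation held no effect of diet and no library that stood apart, so these shares are not the power and error rate of the real comparison. Pairs of libraries within a group differed by a chi-square per degree of freedom of 7.59 to 72.6 over 7405 genes, so none was a copy. The labels give 1 library per mouse. Counting errors cover counting only. Promoter windows and positions are from RefSeq and GENCODE in GRCm38.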

Additional observations from a re-analysis of the deposited data

Results flagged for a closer look

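Within each group of 4 libraries, the distance of the highest or lowest library to its neighbour was compared with the whole range of the group (Dixon's test at its 95% critical value). Chance gives such a result in about 1 of 20 groups, and 2 of the 36 groups examined passed. Both concern HFD/FGFR4 KD 1, the library that lay among the chow libraries on the first principal component. *Fetub* was at 307 CPM there, while the other 3 libraries of the group were between 232 and 237 CPM (distance over range 0.929), and the Chow/FGFR4 KD libraries were between 281 and 316 CPM. *Enho* was at 9.54 CPM in the same library, while the others were between 6.48 and 7 CPM (0.83), and the call of *Enho* with KD on HFD was lost without it (limma-voom adjusted p 0.432).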

How the results depend on the processing

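The calls of *Inhbe*, *Fetub* and *Enho* with HFD in saline mice and of *Fgf21* and *Inhbe* with HFD in KD mice were kept in all 8 fits without a library of the comparison and under 11 other settings. Calls of *Angptl8* and *Enho* with KD on HFD, and of *Rbp4* and *Fetub* with HFD in KD mice, depended on single libraries and settings as given with each gene, and calls of *Ahsg* and *Fetub* with KD on HFD and of *Angptl8* and *Rbp4* with diet that appeared only under an alternative stand there too. *Angptl8* with HFD in saline mice also passed with only the groups compared (-0.53, adjusted p 0.196, against -0.51 and 0.358 with all groups). Depth limits *Fgf21* and *Enho*. The causes of the changes below were not tested, except that a stricter threshold leaves fewer calls by construction.

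With KD on HFD 356 genes were called, 31 at an adjusted p under 0.05, 776 with library quality weights, 114 with library totals as the only scaling, 222 with only the groups compared, and 89 to 605 without a library. With KD on chow 1 gene was called, 2 with DESeq2, 3 with library totals, 2 with only the groups compared, and 1 to 2 without a library. With HFD in saline mice 2939 were called, 1042 at the stricter threshold, 5324 without a filter and 2420 to 3076 without a library. With HFD in KD mice 2293 were called, 351 at the stricter threshold and 1189 to 2546 without a library. The difference between KD effects had 4, 1 at the stricter threshold, 62 with DESeq2, 7 with quality weights, 0 with library totals, 7 without a filter, 2 with the replicate block and 1 to 27 without a library. With library totals 92.1% of the calls with HFD in saline mice were higher, against 51.2% with TMM, 82.8% against 50.1% in KD mice, and 33.3% against 47.8% with KD on HFD. With upper quartiles 61.4% of the calls in KD mice were higher.

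Small changes that were not called turned sign. With library totals these were *Ahsg* (0.084 with HFD in KD mice, 0.034 with KD on chow), *Gdf15* (0.018 with HFD in saline mice), *Rbp4* (0.028 with KD on chow) and *Tsku* (0.14 with HFD in KD mice, 0.048 in saline mice). With quality weights they were *Rbp4* (-0.0014 with HFD in saline mice, 0.015 with KD on chow) and *Tsku* (0.053 with HFD in KD mice), and with upper quartiles *Tsku* (0.026 there). Without a library, signs turned with KD on chow for *Ahsg* (-0.091 to 0.051), *Angptl8* (-0.48 to 0.051) and *Rbp4* (-0.071 to 0.043), with HFD in saline mice for *Gdf15* (-0.64 to 0.11) and *Rbp4* (-0.052 to 0.080), with KD on HFD for *Gdf15* (-0.16 to 0.77) and with HFD in KD mice for *Tsku* (-0.21 to 0.20).

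The labels number the libraries of each group from 1 to 4. Libraries with the same number did not deviate together (correlations from -0.291 to 0.239), so the numbers were not taken as pairs. The replicate block took the calls of *Angptl8* and *Enho* with KD on HFD and of *Rbp4* with HFD in KD mice below the threshold and changed no other hepatokine call.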
